A study of Mus musculus with 18 samples.

Results

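Gene expression was compared between the basal compartment of the mouse mammary epithelium and the colony-forming fraction, CFC. The 2 sorted basal fractions, MaSC and MYO, were taken as one group of 6 RNA samples, which is 6 of the 9 RNA samples of the series, and set against the 3 CFC samples. Each RNA sample was hybridised to a pair of Affymetrix arrays, MOE430 chip A and chip B, so that 12 of the 18 arrays were basal and 6 were CFC. The chips carry mostly different probe sets and were analysed one by one, with MAS5 signals as deposited. The basal samples were chosen by their labels and by no measured value.

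MaSC was the fraction enriched for mammary stem cells, of which the labels count 1 among 50 to 100 cells, so most of the RNA of these samples came from other cells of the fraction. MYO was a basal (myoepithelial) fraction of about 94% purity, described as near the stem cell fraction in phenotype but poor in stem cells. CFC was a fraction in which 1 of 10 sorted cells formed a colony in culture, so most of its cells were not shown to form one. RNA was extracted by the PicoPure method from 2000 to 4000 cells for MaSC, 3000 to 24000 for MYO and 3000 to 4000 for CFC. MaSC and CFC were isolated by negative magnetic selection followed by flow sorting and MYO by immunomagnetic enrichment followed by flow sorting. All samples came from mouse mammary tissue, and the sources used here state no strain, age, treatment or altered genotype. Biological triplicates are stated for CFC only, so the p-values speak for the spread among these samples, which can be technical. In bulk samples of this kind, fewer cells of a type and less RNA per cell cannot be told apart.

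The mammary duct is a bilayer. The outer, basal layer is made of myoepithelial cells, which rest on the basement membrane, carry keratins 5 and 14 and contract like smooth muscle to eject milk. The inner, luminal layer carries keratins 8 and 18, is sealed by tight junctions and produces the milk proteins, and most cells that form colonies in culture belong to its progenitors.

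The genes that check the labels were examined first. Krt5, a basal keratin gene, had signals of 11421 to 50567 (median 30479) over the 6 basal samples, against 1280.4, 181 and 1135 in CFC, and Krt14, its partner, 22252 to 68139 (median 36282) against 1176, 313 and 3131. The luminal keratin gene Krt8 had signals of 13356 to 70023 (median 52101) in the basal samples and 240110, 145200 and 141190 in CFC. The lowest basal sample was above the highest CFC sample for Krt5 and Krt14, and the highest basal sample was below the lowest CFC sample for Krt8. Krt8 was nonetheless far above the signal of 300 used as a floor in every basal sample. On the 18 arrays, 70.0% to 80.4% of probe sets reached that floor. Over the 100 probe sets shared by the chips, the chip A array of MaSC3, MYO3 and CFC3 correlated better with the chip B array of another sample than with its own, so values of the chips are not combined per sample. All 3 CFC arrays of either chip were scanned on the first of 2 (chip A) or 3 (chip B) scan days, while MaSC3 and MYO2 on chip A and MaSC2, MaSC3 and MYO3 on chip B were scanned on a later day.

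A gene was called when the limma test of 6 basal against 3 CFC samples gave an adjusted p under 0.05. On chip A, 181 of 11492 genes were called higher in the basal samples (1.58%) and 90 were called lower (0.783%). Their median log2 fold changes, basal over CFC on the log2(signal + 150) scale, were 2.26 and -2.11, beside a median of -0.03 over all genes. On chip B, 22 of 9244 genes were called higher (0.238%) and 2 lower (0.0216%). The arrays of both groups did not overlap for 160 of the 181 higher and 82 of the 90 lower genes of chip A and for all 24 called genes of chip B. Over all tested genes the arrays did not overlap for 358 higher (3.12%) and 375 lower (3.26%) on chip A, and for 145 (1.57%) and 131 (1.42%) on chip B. A variance model without a trend on signal gave 88 higher and 33 lower calls on chip A and 9 and 0 on chip B. Lower calls on chip A were 57 without CFC replicate 1, 44 without CFC replicate 2 and 60 without CFC replicate 3. With the arrays of the first scan day alone the calls were 122 and 86 on chip A, and 14 and 6 on chip B.

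Genes of the smooth muscle contractile apparatus were among those of largest fold between the basal and CFC samples. Tagln, the gene of transgelin, which binds actin, had signals of 20404, 22361 and 33154 in MaSC and 22483, 44023 and 23872 in MYO, against 153, 1608 and 368 in CFC. All 6 basal samples were close together and far above the 3 CFC samples. The log2 fold change was 5.36 ± 0.40, adjusted p = 6.96e-11, or 41.2-fold. Acta2, smooth muscle actin, had signals of 307350, 251680 and 529430 in MaSC and 333780, 473900 and 465960 in MYO, against 6515, 18331 and 8849 in CFC (log2 5.20 ± 0.41, adjusted p = 2.97e-10). Its lowest basal sample was still 3.77 log2 units above its highest CFC sample. The smooth muscle myosin heavy chain gene Myh11 ranged over 5586 to 14609 (median 9749) in basal samples, against 72.9, 592 and 168 in CFC (log2 4.70 ± 0.41), and the tropomyosin gene Tpm2 over 19293 to 108190 (median 42978) against 2629.7, 1627 and 1182 (log2 4.70 ± 0.39). Neither gene's groups overlapped.

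Over all chip A genes 1.58% were called higher and 0.783% lower, and list counts here and below stand beside these shares. The lists were chosen with earlier results of these data known, so a count above these shares is no test of a list. Of 21 tested contractile genes 13 were called higher and none lower, and all 21 had a log2 fold change above 0, with a median of 1.99. Beyond the genes above, these were Cnn1 (calponin, 3.71), Myl9 (the regulatory myosin light chain, 3.11), Mylk (the kinase that phosphorylates it, 3.00), Actg2 (the other smooth muscle actin, 2.90), Smtn (smoothelin, 2.73), Cald1 (caldesmon, 2.18), Csrp1 (1.99), Tpm1 (1.98) and Flna (filamin, 1.49), all as log2 fold changes. Des, the intermediate filament gene of muscle, and Synpo2 were at 0.01 and 0.22 and were not called. Vcl and Actn1, which encode the widely expressed adhesion proteins vinculin and alpha-actinin 1, were at 0.95 and 0.92 and did not pass either. Myocd, the gene of the coactivator myocardin that drives many of these genes in smooth muscle, and Srf, its DNA-binding partner, were at 0.24 (adjusted p = 0.967) and 0.91 (adjusted p = 0.666). Oxtr, the receptor for oxytocin, the hormone that triggers contraction of myoepithelium, was counted by its chip A probe set, at 0.60 and not called. Its chip B probe set gave signals of 3809, 13421 and 25711 in MaSC and 11158, 15433 and 12994 in MYO, against 262, 519 and 278 in CFC, with no overlap (log2 4.63 ± 0.49, adjusted p = 3.7e-07). In the 9 runs that each left out 1 sample, Csrp1 was lost without CFC replicate 2 (adjusted p = 0.121), Tpm1 without CFC replicate 1 (adjusted p = 0.0736) and Flna without MaSC3, MYO2, MYO3 or any CFC sample (adjusted p up to 0.127).

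The binding site of Srf is the CArG box, and 1 window is shown to place it relative to a gene that was called higher. RefSeq promoter windows (GRCm38.p6, 250 bases before to 50 after a gene's start) were at hand for 18 contractile genes, and a CArG box, searched on both strands, lay in 2 of their 20 windows (10.0%), beside 1.63% of all 32851 windows. The matches were in Vcl, which was not called, and in Myl9, whose box starts 161 bases before the gene's start. The stretch around it, chr2:156775283-156775332 on the plus strand, is printed 5′ to 3′ with the box in capitals.
Myl9: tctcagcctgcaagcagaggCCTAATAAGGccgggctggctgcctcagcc
Myl9 signals were 1187 to 6001 (median 3407) in basal samples and 281, 265 and 115 in CFC, where all arrays were below 300 (log2 3.11 ± 0.52, adjusted p = 0.000255). A match is a description of these letters and not a site shown to be in use.

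**Figure D1:**
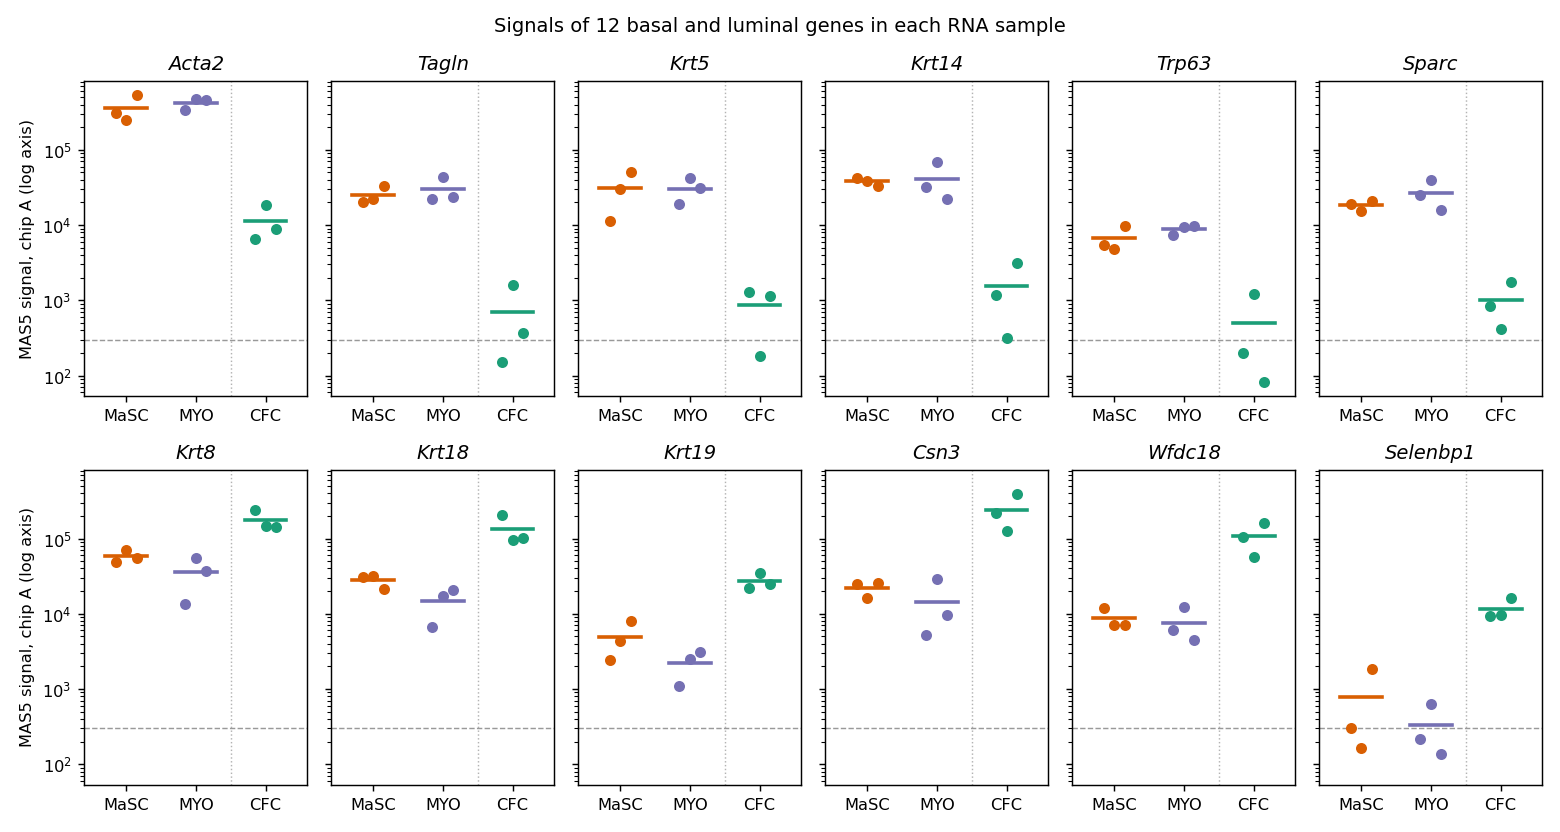
MAS5 signal on chip A (log axis) of 6 genes higher and 6 genes lower in the basal samples, with 1 point per RNA sample and a bar at the mean of each population; the dashed line is the floor of 300. For all 12 genes the 6 basal points (MaSC and MYO) lie on one side of the 3 CFC points.

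The keratins and anchors of the basal cell followed. Krt17, another keratin of basal cells, had signals of 5856 to 15242 (median 12422) in the basal samples, against 309, 662 and 110.1 in CFC (log2 4.67 ± 0.39, adjusted p = 7.22e-10), and Krt5 and Krt14 gave 5.03 ± 0.42, adjusted p = 7.22e-10 and 4.89 ± 0.41. None of the 3 overlapped between groups. Of 15 tested basal keratin and hemidesmosome genes 7 were called higher and none lower, with a median of 1.26. Hemidesmosomes are the junctions that hold a basal cell to the basement membrane. Col17a1, their transmembrane collagen, had signals of 3263 to 9910.5 (median 6006) against 143, 857 and 129.9 (log2 3.76 ± 0.46). The chains of laminin-332, the ligand of hemidesmosomes, were also called, Lama3 at 2.43 and Lamb3 at 1.67, as was Itga6, their integrin receptor and a common sorting antigen, at 1.70 ± 0.33. The other anchor genes did not pass, with Itgb4, the partner of Itga6, at 0.24 (adjusted p = 0.97), Plec (plectin) at 0.32 and Dst, whose arrays did not overlap, at 1.15. Krt15, Krt16 and Krt6a were at 0.74, 0.09 and -0.58 and were not called. Lamb3 was lost without CFC replicate 3 (adjusted p = 0.0816).

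Among 19 basal transcription factors 4 were called higher and none lower, with a median of 0.79. Trp63 encodes p63, the factor that maintains basal epithelia. Its signals were 5510.4, 4803 and 9595 in MaSC and 7468, 9526 and 9606 in MYO, against 197, 1209 and 82.5 in CFC, and only 1 CFC array reached the floor (log2 3.99 ± 0.45, adjusted p = 3.02e-07). Snai2, the gene of the repressor Slug, had signals of 1505 to 3832 (median 2523) against 80.5, 150.3 and 1051 on chip A (log2 2.63 ± 0.54, adjusted p = 0.00268) and 7358 to 103900 (median 33247) against 1529.8, 2659 and 1786 on chip B (log2 3.97 ± 0.51, adjusted p = 1.63e-05). The groups did not overlap for either probe set. Id4, which encodes an inhibitor of helix-loop-helix factors, had the tightest CFC values of the 4, with 3740 to 8924 (median 6404) in basal samples and 1896, 1807 and 1825 in CFC (log2 1.60 ± 0.36, adjusted p = 0.00755), and Egr2, a zinc-finger factor, was at 1.87 ± 0.41, adjusted p = 0.00489. Egr2 was lost without CFC replicate 2 and without CFC replicate 3, with adjusted p up to 0.0602. The mesenchymal regulators Snai1, Twist1, Twist2, Zeb1 and Zeb2 were at 0.18, 1.15, 0.13, 0.17 and 0.85, and none was called. Irx4 and Sox10, at 2.06 and 1.18, had no overlap of arrays and adjusted p of 0.148 and 0.118. With the MaSC samples alone 1 of 16 tested members of the list was called higher, and with the MYO samples alone 4 of 17 were. Without a variance trend 2 were called.

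The matrix genes came from the basement membrane and from matricellular proteins. Sparc, a collagen-binding matricellular gene, had signals of 15191 to 39254 (median 19723) in basal samples, against 833, 412 and 1748 in CFC (log2 4.40 ± 0.37, adjusted p = 7.22e-10), and Postn (periostin) 24151 to 123510 (median 51256) against 3204, 4975 and 1429.7 (log2 4.11 ± 0.42, adjusted p = 4.8e-08). Col4a1 and Col4a2, whose chains form the type IV collagen of every basement membrane, were higher together. Col4a1 had signals of 23558, 24160 and 31385 in MaSC and 33275, 66281 and 28928 in MYO, against 1494, 2593 and 2780.3 in CFC (log2 3.78 ± 0.34), and Col4a2 was at 3.58 ± 0.38. Of 26 tested matrix genes 8 were called higher and none lower, with a median of 1.58. The others were Ltbp2, a latent TGF-beta binding protein family member (2.70), Col18a1, the collagen that yields endostatin (2.07), and, with arrays that overlapped, Col5a2 (2.40) and Timp3, a metalloprotease inhibitor (1.96). The other core basement membrane genes had log2 fold changes on the same side without passing, with Lamb1 at 1.91, Nid1 at 1.83, Lamc1 at 1.54, Lama1 at 2.03 and Lama5 at 1.35, while Hspg2, the perlecan gene, was at 0.17. The 11 tested fibroblast markers, of which none was called in this fit, had a median of 0.49, and their summed signal was 14750 to 67264 in basal samples, highest in MYO2, against 14040 to 22443 in CFC. Col3a1, the fibrillar collagen gene of that list, was at 2.29 ± 0.64, adjusted p = 0.0575. By limma, 4 of these markers were higher at an unadjusted p under 0.05 (Col1a2, Col3a1, Dpt and Mfap5). The part of fibroblast RNA in the matrix genes was not tested. Without MYO2, in which the summed signal was highest, 6 matrix genes were called higher, and 5 were with the MaSC samples alone and 10 with the MYO samples alone. With MYO alone the fibroblast markers Col3a1 and Col1a2 were called higher too. Col3a1 was also called without MaSC2, MaSC3, MYO3 or CFC2, with 3 population means, with the replicate number as a block and with scan day as a random block. Of the matrix calls, Col5a2 was lost without MaSC3, MYO1, MYO2, CFC2 or CFC3 (adjusted p up to 0.114) and Timp3 without MYO2, CFC2 or CFC3 (adjusted p up to 0.293).

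Secreted proteins were the other large group. Htra1, a secreted serine protease gene, had signals of 8628, 12597 and 15559 in MaSC and 18793, 30702 and 12318 in MYO, against 431, 201 and 218 in CFC (log2 5.18 ± 0.38, adjusted p = 6.09e-11). The lowest basal sample was 3.92 log2 units above the highest CFC sample, the widest gap of any called gene on chip A. Crispld2, a secreted glycoprotein gene on chip B, had signals of 200160, 144750 and 90906 in MaSC and 598660, 500230 and 127320 in MYO, against 6455, 6216 and 10459 in CFC (log2 4.82 ± 0.43, adjusted p = 3.34e-08). All 3 MaSC samples were far above CFC, and 2 MYO samples were higher still. Of 41 tested secreted factors and binding proteins 10 were called higher and 1 lower, with a median of 0.64. Igfbp3 and Igfbp4, which bind insulin-like growth factors, were at 4.08 ± 0.52 and 2.93 ± 0.41. All CFC arrays were below 300 for Igfbp3, and its chip B probe set gave 1.60 ± 0.78 (adjusted p = 0.903). Il17b, an interleukin-17 family cytokine gene, was at 3.52 ± 0.49, adjusted p = 1.63e-05, and Ccn2, a connective tissue growth factor gene, at 3.31 ± 0.45, adjusted p = 1.01e-05. The chemokine genes Cxcl14 (2.47 ± 0.42) and Cxcl12 (2.25 ± 0.56), the angiogenic factor gene Vegfa (1.63 ± 0.39) and the Notch ligand gene Dll1 (1.50 ± 0.38) completed the higher members. Cxcl12 overlapped between groups and was lost without MYO1, MYO2, CFC1 or CFC3 (adjusted p up to 0.215). Dll1 was lost without MaSC2, MaSC3, CFC1 or CFC2 (adjusted p up to 0.14) and Vegfa without CFC1 (adjusted p = 0.207).

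Edn1, the gene of the vasoconstrictor peptide endothelin 1, was the secreted factor that was lower in the basal samples. It had signals of 253 to 1871 (median 509) against 15745, 1894 and 4519 in CFC (log2 -2.83 ± 0.61, adjusted p = 0.00475). The highest basal and the lowest CFC sample were nearly level, and without CFC replicate 1 the call was lost (adjusted p = 0.265). The result for Jag1, another Notch ligand gene, depended on the probe set. Its chip B probe set gave 7456, 22072 and 13456 in MaSC and 8817, 32183 and 11846 in MYO, against 118, 1888 and 297 in CFC (log2 4.50 ± 0.53, adjusted p = 2.63e-06), and its chip A probe set of highest signal gave -0.92 ± 0.67, adjusted p = 0.774. Rbpj, the DNA-binding factor of the Notch pathway, and Tgfbr3, a TGF-beta co-receptor gene, likewise were called on chip B (2.59 and 2.42) and not on chip A (0.31 and -0.18). Rbpj was lost on chip B without MaSC2, MaSC3, MYO2 or CFC3 (adjusted p up to 0.58). None of 14 tested Notch targets and regulators, counted by chip A probe sets where these were tested, was called by limma at an adjusted p under 0.05, and 2 were lower at an unadjusted p under 0.05 (Rfng and Adam10).

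Receptors and surface antigens gave a different count. Of 48 tested genes 1 was called higher and 6 lower, with a median of -0.09. The 1 higher call of 48 is near the 1.58% of all chip A genes, while 0.783% of all were called lower. Fzd7, a receptor for Wnt proteins, was the one called higher, with signals of 4874 to 15210 (median 8936) in basal samples, against 1253, 1586 and 1579.9 in CFC (log2 2.44 ± 0.37, adjusted p = 5.06e-05). Its CFC values were close together and below every basal sample. Cd24a, the gene of a glycoprotein used to sort mammary cells, had signals of 5371 to 15403 (median 10585) against 25521, 71287 and 31490 (log2 -1.94 ± 0.36, adjusted p = 0.000702), and Epcam, the epithelial adhesion molecule, 9375 to 33135 (median 24791) against 80011, 72148 and 40616 (log2 -1.58 ± 0.37, adjusted p = 0.0118). Both stayed well above the floor in every basal sample. Erbb3, a receptor for neuregulins, was at -2.68 ± 0.52, adjusted p = 0.00146, and Cxcr4, the receptor for the product of Cxcl12, at -2.88 ± 0.60, adjusted p = 0.00293. Cd82, a tetraspanin gene, was at -1.33 ± 0.36, adjusted p = 0.0471. Ly6d, a small surface protein gene, was at -3.60 ± 0.67, adjusted p = 0.000817, with an overlap through MaSC3. Kit and Prom1, surface genes of luminal progenitors and luminal cells, were at -1.99 ± 0.63 (adjusted p = 0.125, no overlap) and -1.79 ± 0.63 (adjusted p = 0.21). Itgb1, whose product is a common sorting antigen for stem cells, was at 0.01 ± 0.44 (adjusted p = 0.996). Without CFC replicate 2, 3 genes were called lower, since Ly6d (adjusted p = 0.0711), Epcam and Cd82 were lost. Epcam was also lost without CFC1 (adjusted p up to 0.12), and Cd82 in each of the runs but those without MaSC1 or MaSC2 (adjusted p up to 0.314). Without MaSC replicate 2, Cdh2, N-cadherin, was called higher as well.

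Keratins and junction genes of the luminal layer were the first group that was lower in the basal samples. Krt18 had signals of 30351, 31625 and 21121 in MaSC and 6619.7, 17387 and 20631 in MYO, against 203910, 95288 and 102470 in CFC (log2 -2.71 ± 0.40, adjusted p = 3.39e-05). Krt19, a keratin of luminal cells, had 2400, 4334 and 8098 in MaSC and 1101, 2545 and 3085 in MYO, against 21822, 35211 and 25201 in CFC (log2 -3.09 ± 0.40, adjusted p = 5.11e-06). No basal sample reached a CFC sample for either gene, and the MYO samples were the lower of the basal samples for Krt18. Krt8 gave -2.02 ± 0.42, adjusted p = 0.0029 and Krt7 -2.65 ± 0.63, adjusted p = 0.0127. Of 29 tested genes 9 were called lower and 1 higher, with a median of -1.05. The tight junction genes Cldn3 (-2.42 ± 0.39), Cldn4 (-2.11 ± 0.43) and Cldn7 (-2.05 ± 0.46) and the membrane protease genes Prss8, prostasin (-2.81 ± 0.63), and St14, matriptase (-1.92 ± 0.43), were called. The highest basal sample for Prss8 was MaSC1, at a signal of 410, and the others were below the floor. Marveld2 and Pard6b, at -2.21 and -2.21, had no overlap and adjusted p of 0.0607 and 0.0848, and Cdh1, E-cadherin, counted among the receptors, was at -0.80 (adjusted p = 0.436). The one member called higher was Krt23, a keratin gene with 3409 to 11056 (median 4208) in basal samples and 1047, 224 and 749.5 in CFC (log2 2.73 ± 0.44, adjusted p = 0.000148). Krt7 was lost without CFC1 or CFC2 (adjusted p up to 0.0807), Cldn4 and Cldn7 without CFC1 (adjusted p = 0.0836 and 0.117), St14 without CFC2 (adjusted p = 0.122) and Prss8 without CFC3 (adjusted p = 0.0703). With the MaSC samples alone, 5 genes of the list were called lower.

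Milk protein genes were the list with the lowest median, -1.67, with 9 of 21 tested members called lower and none higher. Csn3, the gene of kappa-casein, had signals of 24813, 16397 and 25274 in MaSC and 5185, 28649 and 9594 in MYO, against 215530, 127100 and 385540 in CFC (log2 -3.79 ± 0.43, adjusted p = 3.86e-07). Csn2, beta-casein, had 12038, 3646 and 4320.3 in MaSC and 2301, 16144 and 2624 in MYO, against 61618, 20580 and 361990 in CFC (log2 -3.86 ± 0.57, adjusted p = 3.71e-05). The basal samples were below all CFC samples for both genes, though their signals were well above the floor, and the CFC samples themselves spread widely for Csn2. Csn1s1 and Csn1s2a, the alpha-casein genes, were at -3.42 ± 0.44, adjusted p = 3.45e-06 and -3.99 ± 0.73, adjusted p = 0.000702, and Csn1s2a was lost without CFC replicate 3 (adjusted p = 0.0549). Wfdc18, of the whey acidic protein family, had 4487 to 12135 (median 7093) in basal samples and 104030, 56976 and 161760 in CFC (log2 -3.66 ± 0.36, adjusted p = 1.51e-08). Muc15, a membrane mucin (-3.71 ± 0.52), Ltf, lactoferrin (-2.99 ± 0.47), Aqp5, a water channel whose arrays overlapped (-2.57 ± 0.68), and Btn1a1, butyrophilin of the milk fat globule (adjusted p = 0.0113), completed the called members. Wap and Lalba, whose products are whey proteins of full lactation, were at -1.70 and -1.43 and were not called. With CFC replicate 3 left out, 6 members were called lower. Aqp5 was lost without MaSC2, MYO2, MYO3 or any CFC sample (adjusted p up to 0.339) and Btn1a1 without CFC1 or CFC3 (adjusted p up to 0.189).

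Transcription of casein genes is driven by STAT5, a factor activated by prolactin, and STAT factors bind the palindrome TTCNNNGAA. The letters were searched in the promoter windows of the milk list, where they lay in 5 of 15 (33.3%), beside 8.30% of all 32851 windows and 0 of the 20 contractile windows. Because the motif reads alike on both strands, 1 search covers both. The matches were in Csn1s1, Csn2 and Csn1s2a, which were called lower, and in Glycam1 and Pigr, which were not called. Those of Csn1s2a and Pigr lay after the gene's start. The stretches around the matches of Csn1s1 (chr5:87666088-87666136, plus strand) and Csn2 (chr5:87699490-87699538, minus strand), genes called lower that lie near each other in the casein cluster, are shown 5′ to 3′ with the motif in capitals.
Csn1s1: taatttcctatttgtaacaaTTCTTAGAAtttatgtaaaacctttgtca
Csn2: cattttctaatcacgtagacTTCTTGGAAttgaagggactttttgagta
The motifs start 100 and 93 bases before the start of the genes. Stat5a and Stat5b themselves were at -0.83 (adjusted p = 0.723) and -0.14 (adjusted p = 0.979). The motif is common, its presence in a window shows no binding, and the windows of the other members say nothing about sites further away.

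Among 27 tested luminal transcription factors 1 was called lower and 1 higher, with a median of -0.36. With 1.58% and 0.783% of all chip A genes called higher and lower, counts this small say little about the list. Ehf, an epithelial ETS factor, had signals of 82.5 to 796 (median 328) in basal samples, against 3512, 1364 and 4346 in CFC (log2 -2.53 ± 0.64, adjusted p = 0.023), and was lost without CFC replicate 1 and without CFC replicate 3 (adjusted p up to 0.259). Tfap2c, the gene of AP-2 gamma, placed on the list as a luminal factor, went the other way, with 8307 to 23690 (median 16265) against 3541, 2581 and 2774 (log2 2.25 ± 0.34, adjusted p = 5.25e-05) and no overlap. Elf5, the ETS factor of alveolar progenitors, lay at the threshold, with 72.9 to 939 (median 329) against 2826, 2611 and 1554 and a log2 fold change of -2.33 ± 0.65 (adjusted p = 0.0503). It was called without MaSC1 or MYO1. Foxa1, Gata3 and Cited1, factors of luminal cells, were at -1.65, -1.75 and -1.89 and were not called. Esr1, the estrogen receptor gene, was not called on chip A (-0.28 ± 0.63), and on chip B its probe set of highest signal gave 419.9 to 4286 (median 684) against 5469.6, 8818 and 5656 (log2 -2.57 ± 0.61, adjusted p = 0.0897).

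Some metabolic and defence genes also were lower in the basal samples. Selenbp1, which encodes a selenium-binding methanethiol oxidase, had signals of 299, 164 and 1868 in MaSC and 219.5, 630.2 and 135 in MYO, against 9267, 9557 and 16416 in CFC. The CFC samples were close together, and the basal samples were below them by 2.22 log2 units or more (log2 -4.42 ± 0.56, adjusted p = 3.11e-06, or 21.5-fold lower), the largest difference of the lower genes. Tph1, the rate-limiting enzyme of serotonin synthesis outside the brain, was at -3.30 ± 0.63, adjusted p = 0.00122, Gpx3, a secreted glutathione peroxidase, at -2.82 ± 0.55, adjusted p = 0.00149, and Scd1, a fatty acid desaturase, at -2.31 ± 0.39, adjusted p = 0.000222. Gpx1 was at -1.19 ± 0.33, adjusted p = 0.0488 and was lost in each of the 9 runs that left out 1 sample but those without MaSC3 or MYO2 (adjusted p up to 0.385). These were 5 of 23 tested lipid and redox genes, and the median of that list was -0.05, with Fasn at -0.05 and Acaca at 0.53. Without CFC replicate 2, 2 of the list were called lower, since Tph1 (adjusted p = 0.0575) and Gpx3 (adjusted p = 0.0508) were lost too, and without MaSC replicate 1 Hmgcs1, of cholesterol synthesis, was called higher. Of 21 tested innate defence genes 3 were called lower and 1 higher, with a median of -0.67. Haptoglobin, Hp (-3.61 ± 0.61, overlapping arrays), and the lipopolysaccharide sensing genes Cd14 (-2.64 ± 0.53) and Lbp (-1.88 ± 0.51) were lower. Lbp was lost without MaSC3, MYO1, MYO3 or any CFC sample (adjusted p up to 0.283) and Cd14 without CFC3 (adjusted p = 0.0847), which left 1 lower call in that run. Slpi, a secreted protease inhibitor, had 38158 to 84539 (median 48773) in basal samples and 12996, 20604 and 6803 in CFC and was higher (log2 2.08 ± 0.36, adjusted p = 0.000303).

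**Figure D2:**
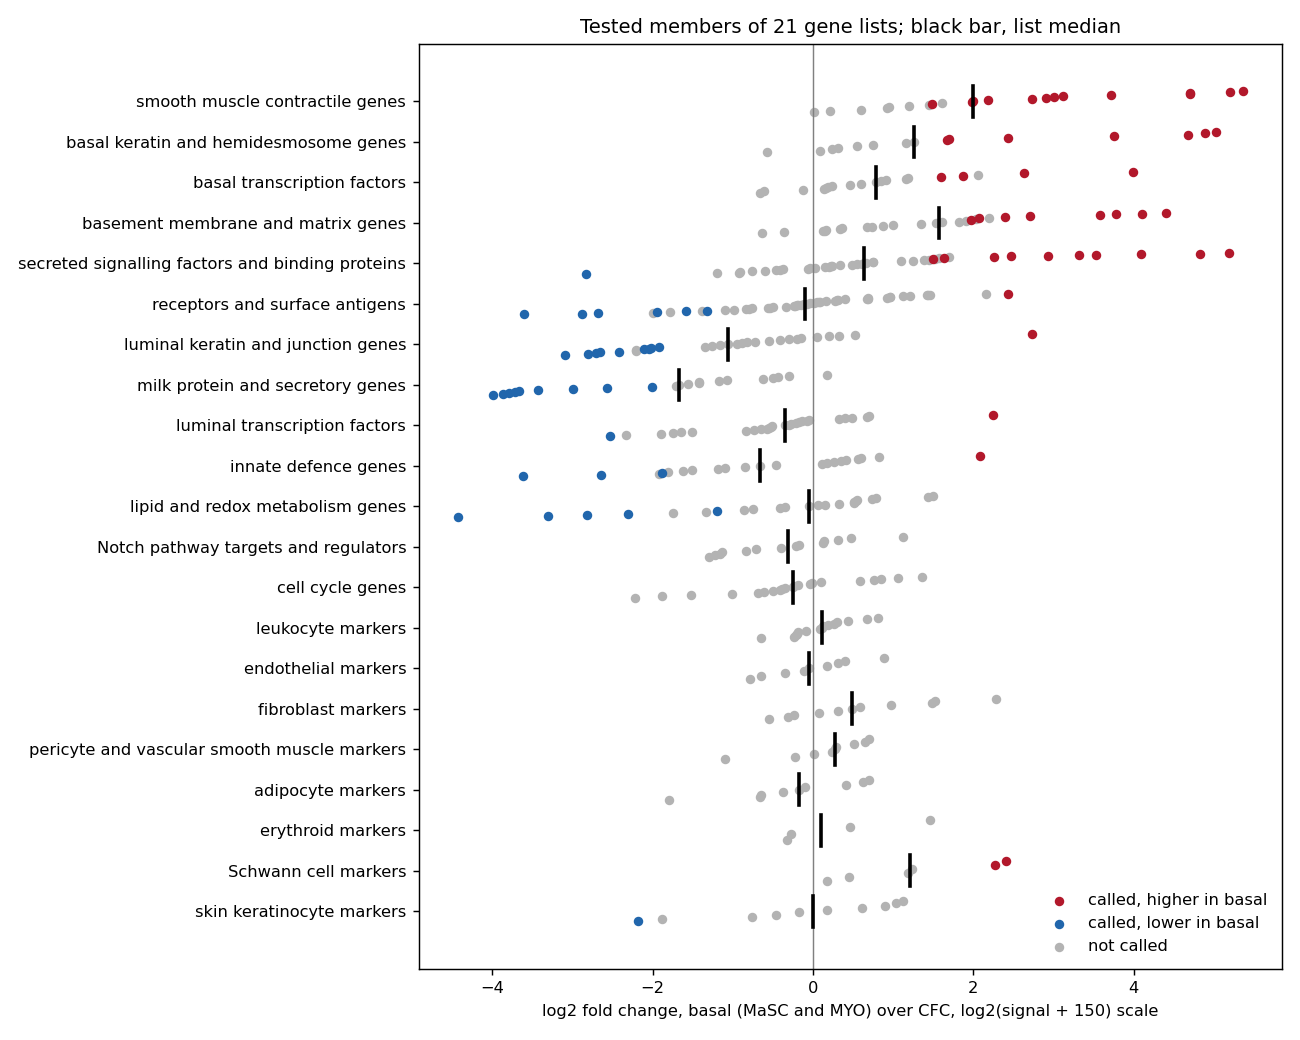
Log2 fold change (horizontal axis, basal over CFC, log2(signal + 150) scale) of every tested member of the 21 lists, 1 point per gene, with called genes coloured and the median of each list as a black bar. Called members of the first 4 lists all lie to the right of 0 and those of the milk protein list to the left, while the 8 lists with no called member (Notch targets, cell cycle, leukocyte, endothelial, fibroblast, pericyte, adipocyte and erythroid) have medians between -0.31 and 0.49.

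Genes outside the lists widened the account. Slc2a3, the high-affinity glucose transporter GLUT3, had signals of 4394, 4576 and 4858 in MaSC and 2448, 7586 and 6214 in MYO, against 63.6, 128 and 108 in CFC (log2 4.30 ± 0.46, adjusted p = 1.08e-07). All CFC arrays were below the floor. Of the other chip A probe sets of Slc2a3, that at 2.53 was called and those at -0.15 and 0.95 were not. Gja1, the gap junction gene connexin 43, was high and even in the basal samples, with 61636, 74922 and 64489 in MaSC and 81951, 105880 and 75746 in MYO, against 8509.8, 8245 and 5738 in CFC (log2 3.34 ± 0.32, adjusted p = 1.08e-08). Its basal samples spanned 0.78 log2 units. Other called genes of even basal level were Tor1aip2 (2.05 ± 0.30, range 0.60 log2 units), Tes, the focal adhesion protein testin (2.30 ± 0.33), the actin-associated genes Synpo (2.09 ± 0.42) and Pdlim4 (2.88 ± 0.47), and Col18a1. The other probe sets of Tor1aip2, at 1.06, 0.49 and 1.13, were not called. Synpo was lost without CFC1 (adjusted p = 0.0543). On chip B, Tenm2, a teneurin adhesion gene, was at 4.49 ± 0.46, adjusted p = 3.7e-07, Cotl1, an actin-binding gene, at 3.75 ± 0.37, adjusted p = 1.88e-07, Lhfp at 3.58 ± 0.37, adjusted p = 3.7e-07 and Sema6d, a transmembrane semaphorin, at 3.40 ± 0.48, adjusted p = 9.06e-05. The chip A probe set of highest signal for Cotl1 was not called (0.46, adjusted p = 0.73). Of its others there, those at 2.10, 2.32 and 3.54 were called and that at 1.07 was not. Sema6d was at 0.96 on chip A and, by other chip B probe sets, at -0.62 and 0.63, none of them called. The other chip B probe sets of Tenm2, at -0.35 and 1.50, were not called. On chip A Tenm2 was called (2.14) and was lost without MYO1, MYO2, CFC1 or CFC2 (adjusted p up to 0.146).

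Among the lower genes outside the lists, Ceacam1, an adhesion gene, had 1296 to 3312 (median 2382) in basal samples, against 28535, 12520 and 15966 in CFC (log2 -2.90 ± 0.36, adjusted p = 2.38e-06). Its lowest CFC sample was 1.87 log2 units above its highest basal sample, and the basal samples spanned 1.26 log2 units. Kcnn4, a calcium-activated potassium channel (-3.55 ± 0.66), Fcgbp (-2.99 ± 0.50), the fibrinogen beta chain gene Fgb (-3.19 ± 0.73), Cytip (-2.86 ± 0.47) and Anxa1, annexin 1 (-2.34 ± 0.35), were also lower. Fgb was lost without CFC replicate 2 (adjusted p = 0.4). On chip B the membrane protease gene Tmprss2 had signals of 3515, 8628 and 7468 in MaSC and 2002, 6272 and 588 in MYO, against 38882, 96014 and 37214 in CFC (log2 -3.82 ± 0.53, adjusted p = 8.54e-05), and was called lower on chip A too (-2.71 ± 0.59), where it was lost without CFC2 or CFC3 (adjusted p up to 0.0627). Smim22 (-3.24 ± 0.56, adjusted p = 0.00185) was the other lower call of chip B. Arhgef6 and Sbsn were next by p on chip B and were not called, at -2.76 ± 0.63, adjusted p = 0.0621 and -1.89 ± 0.44, adjusted p = 0.0764. Another chip B probe set of Sbsn, of lower signal and so not counted, did pass (-2.72 ± 0.47, adjusted p = 0.00234).

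**Figure D3:**
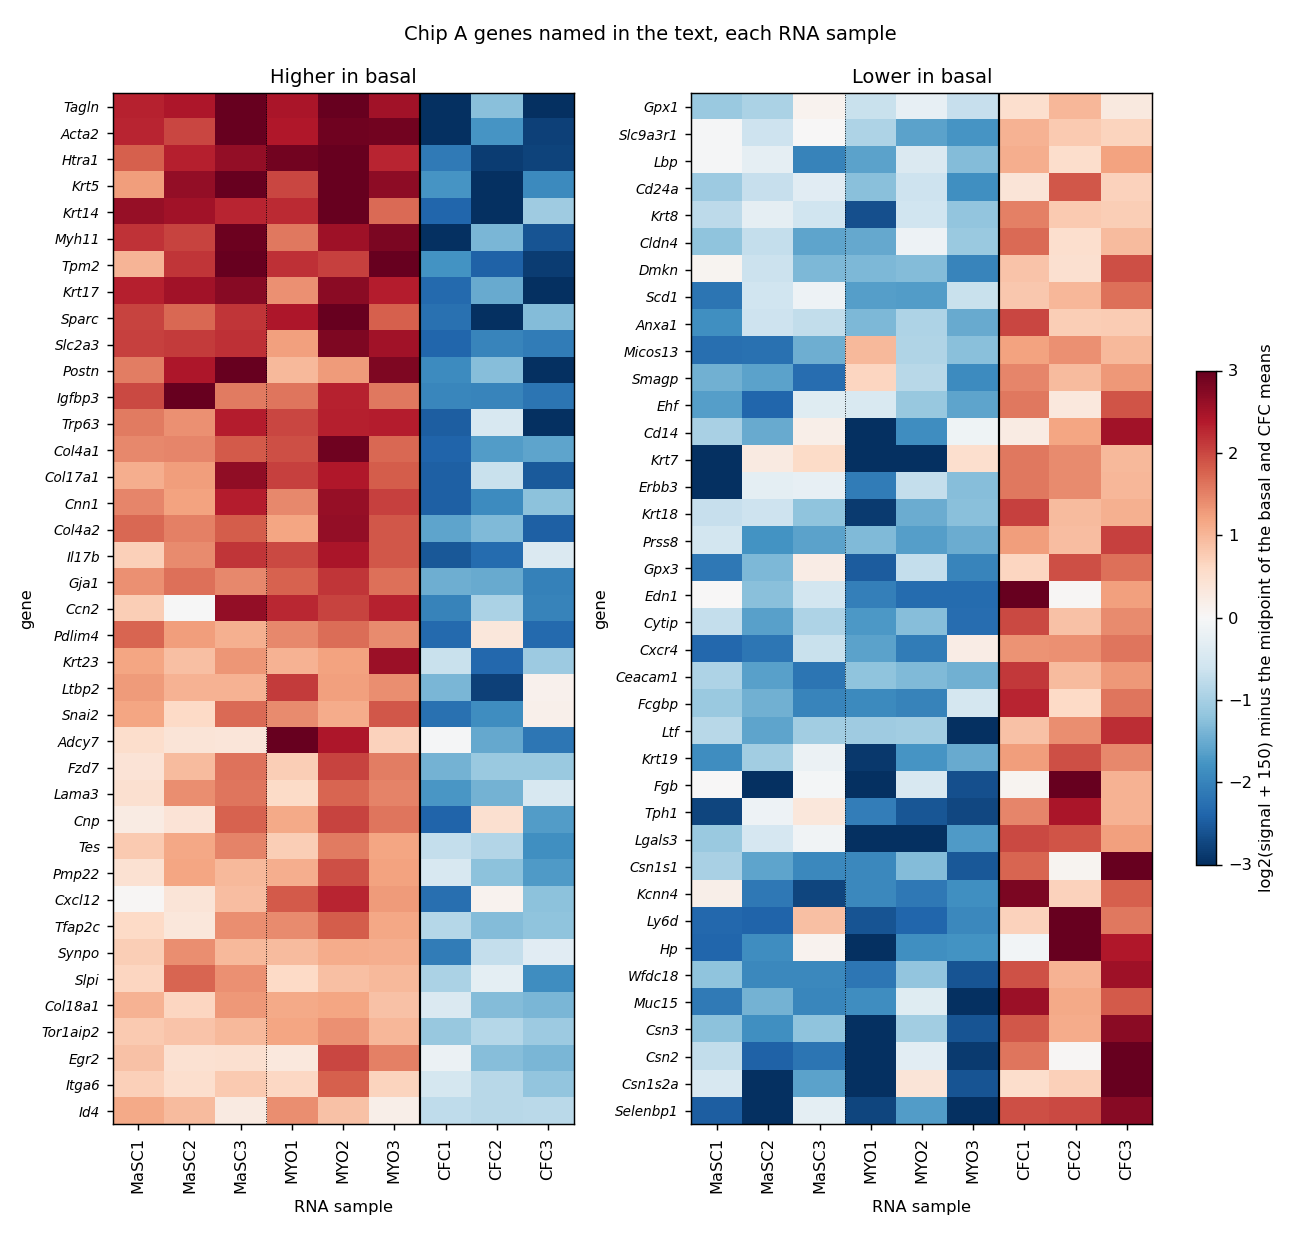
Log2(signal + 150) of the chip A genes named by rule in each RNA sample, as the difference from the midpoint of the basal and CFC means (colour, red above and blue below), with basal samples left of the thick line and CFC right of it. The genes higher in basal samples have 6 red and 3 blue columns with few exceptions such as Cnp and Cxcl12 in CFC2, while MaSC3 shows the CFC side for Ly6d.

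The 2 basal fractions were also compared with each other. In a fit with a mean for each population, no gene of either chip differed between MaSC and MYO at an adjusted p under 0.05. At an unadjusted p under 0.05 423 genes of chip A passed (3.68%) and 371 of chip B (4.01%), of which 14 and 3 were among the called genes. Both shares were below the share that this threshold passes when no gene differs. Among the genes called higher on chip A, MaSC was above MYO in 45 of 181, and among those called lower in 67 of 90. The median MaSC minus MYO difference was -0.28 for the higher and 0.38 for the lower genes, against -0.02 over all genes of chip A. MaSC thus lay on the CFC side of MYO more often than not in both sets. No test was made of these counts. The enrichment method also differed between MaSC and MYO and cannot be told apart from the fraction.

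Lgals3, galectin 3, had the largest such difference. Its signals were 4884, 7598 and 9971 in MaSC and 695, 1179 and 3204 in MYO, against 42762, 40375 and 25626 in CFC (log2 -3.39 ± 0.51, adjusted p = 4.35e-05 for all basal samples over CFC). All MaSC samples were above all MYO samples and below all CFC samples. MaSC minus MYO was 2.24 ± 0.44 (unadjusted p = 1.96e-05, adjusted p = 0.394). Edn1 (1.63), Tph1 (1.60), Krt19 (1.04) and Krt18 (1.02) lay on the same side. Micos13, a mitochondrial membrane gene called lower in basal samples (log2 -2.38 ± 0.62), lay on the other, with MaSC minus MYO at -1.60. Of the genes called higher, Adcy7, an adenylate cyclase (-1.66), Cxcl12 (-1.35), Ccn2 (-1.08) and, on chip B, Crispld2 (-1.28) were lower in MaSC than in MYO. The basal against CFC calls of Micos13 and Adcy7 were lost in 4 of the 9 runs each, Micos13 without MaSC2 or any CFC sample (adjusted p up to 0.213) and Adcy7 without MYO1, MYO2, CFC2 or CFC3 (adjusted p up to 0.189). With each basal fraction alone against the same 3 CFC samples, Tagln was at 5.26 in MaSC and 5.47 in MYO, Trp63 at 3.76 and 4.23, Sparc at 4.16 and 4.63, and Csn3 at -3.33 and -4.26. With 3 basal samples, 77 genes were called higher and 48 lower for MaSC, and 172 and 98 for MYO, on chip A.

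**Figure D4:**
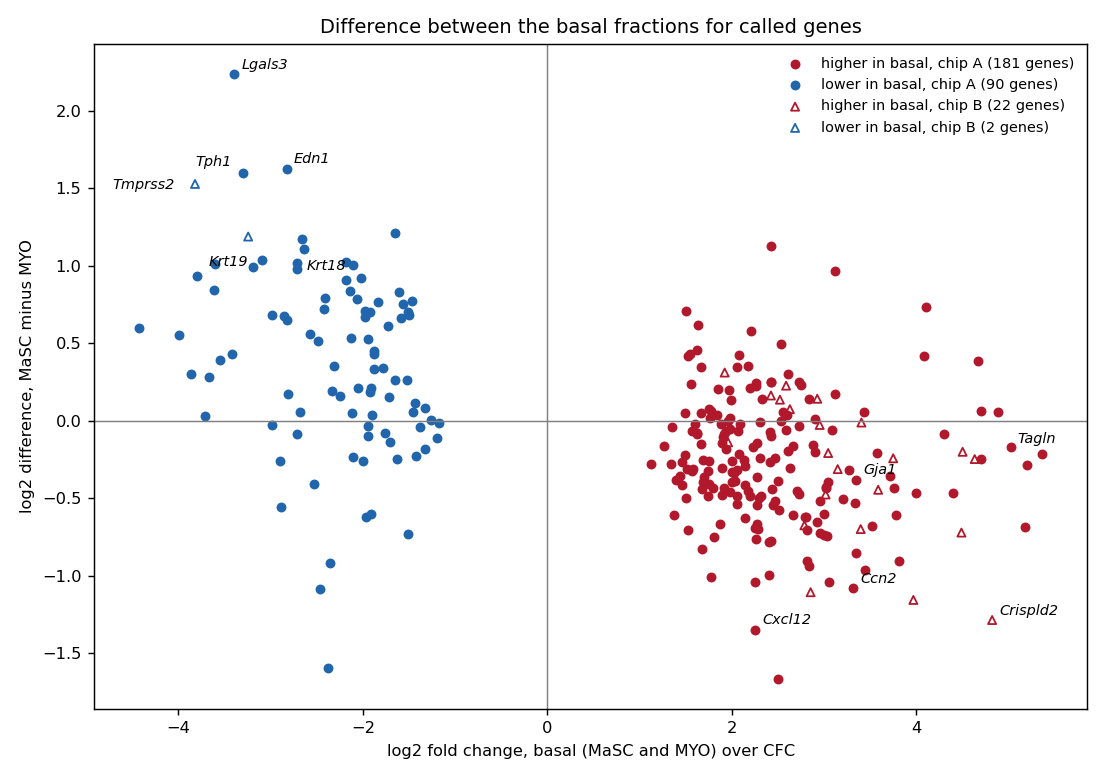
Difference between the basal fractions (vertical axis, MaSC minus MYO, log2) against the log2 fold change of all basal samples over CFC (horizontal axis) for the 181 higher and 90 lower called genes of chip A (filled circles) and the 22 and 2 of chip B (open triangles). Of the lower genes on chip A 67 lie above 0, with Lgals3 highest at 2.24, and of the higher genes 45 do.

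How far a call depended on the probe set was also counted. Of the 181 genes called higher on chip A, 103 had another tested probe set on that chip, and in 43 of these another one was called the same way. For the 90 lower genes these numbers were 41 and 15. No other probe set of a called gene was called the opposite way. Of the higher genes, 52 were also tested on chip B, where 5 were called the same way and 42 (80.8%) had a log2 fold change above 0, beside 48.7% of all genes tested on chip B. Of the lower genes 18 were tested there, 1 was called lower and 13 were below 0. Probe sets of a gene can match different transcript ends. For Krt14 the other chip A probe sets gave 5.79 and 0.28, and the 3 probe sets of Krt8 gave -2.02 to -2.27.

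Markers of other cell types were followed in the same fit. None of the tested leukocyte (15), endothelial (9), fibroblast (11), pericyte (9), adipocyte (9) and erythroid (4) markers was called by limma. At the shares called over all chip A genes, 1.58% higher and 0.783% lower, lists of this size would hold few calls or none. In these lists, the fibroblast one aside, 1 erythroid marker (Klf1) was higher and 1 pericyte (Notch3) and 1 adipocyte (Cidea) marker lower at an unadjusted p under 0.05. The summed leukocyte signal was 12058 to 22903 in basal samples and 12448 to 20370 in CFC, and the endothelial sum 7327 to 13448 and 9431 to 11961. The endothelial genes Pecam1, Tie1 and Vwf were below the floor. The pericyte sum, 7868 to 13021 in basal samples and 9351 to 10947 in CFC, overlapped too, and Des and Rgs5 were at 0.01 and 0.52. The myelin genes Cnp (2.41 ± 0.52, overlapping arrays) and Pmp22 (2.28 ± 0.36) were called higher among 6 Schwann cell markers. Cnp was lost without CFC1 (adjusted p = 0.0996), which left 1 call, and its other probe sets, at 1.26 and -0.43, were not called. The sum of that list was 20437 to 40447 in basal samples, against 7911 to 8713 in CFC, while S100b and Mag were at 0.45 and 0.17 and not called. All 6 Schwann cell markers were above 0, with a median of 1.21. Mbp and Sox10, not called, were higher at an unadjusted p under 0.05 by limma, as were Cnp and Pmp22. Of 10 skin keratinocyte markers, each counted by 1 probe set, only Dmkn was called, lower at -2.18 ± 0.45, adjusted p = 0.0032. It was lost without CFC3 (adjusted p = 0.122). Sbsn was also lower at an unadjusted p under 0.05 by limma. A chip B probe set of Sbsn that was not counted did pass (-2.72 ± 0.47, adjusted p = 0.00234). The summed signal of the keratinocyte list was 17101 to 33194 in basal samples and 31652 to 42561 in CFC. Adipocyte signal varied within the basal group, from 5125 in MYO2 to 32162 in MaSC3, against 10695 to 17572 in CFC. Of 21 cell cycle genes none was called and 3, Mki67, Top2a and Ube2c, were lower at an unadjusted p under 0.05, with Mki67, the proliferation marker, at -1.88 (adjusted p = 0.254, no overlap) and Ube2c at -2.22 (adjusted p = 0.0791).

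**Figure D5:**
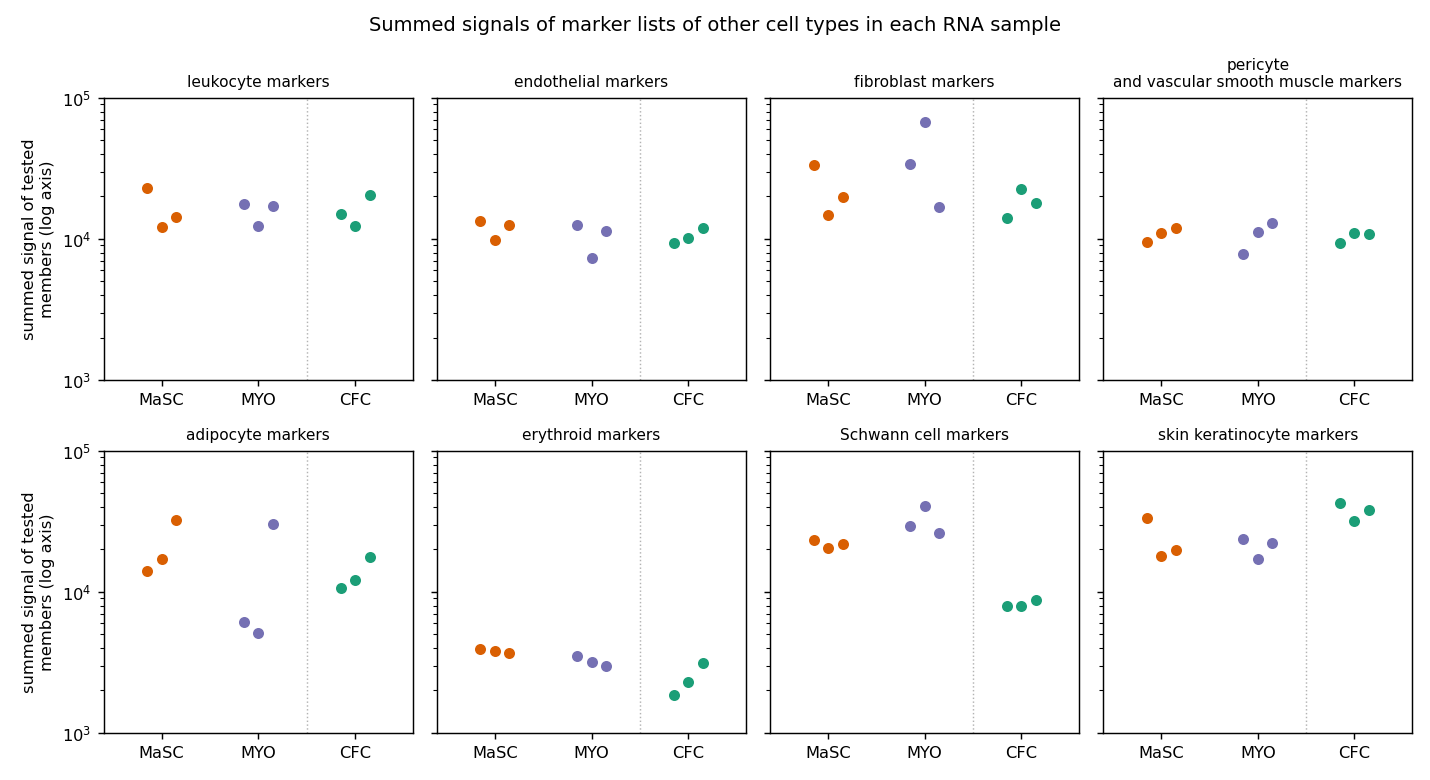
Summed signal (log axis) of the tested members of 8 marker lists of other cell types, 1 point per RNA sample. The Schwann cell list is the one in which all 6 basal points (20437 to 40447) lie above the CFC points (7911 to 8713); the fibroblast sum is highest in MYO2 at 67264, and the other lists overlap between groups.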

How the data were processed

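The deposited values are intensities, 1 signal per probe set and array on a linear scale, made by the authors with MAS5 per the submitters' processing notes; the sources used here give no version or target. Each array had a mean of 1500 between its 2nd and 98th percentiles, so no further scaling was made. Log2(signal + 150) was analysed, which understates changes of dim genes. Probe sets with a signal of 300 or more on at least 3 of the 9 arrays of a chip were tested, 20159 on chip A and 21394 on chip B; controls were not tested, and the 100 probe sets common to the chips entered on chip A. Symbols came from the platform annotation, updated by Entrez identifier through a RefSeq table of GRCm38.p6 (names only); 20380 probe sets of chip A and 14661 of chip B had 1 symbol. The probe set of highest mean log2 signal stood for a gene on its chip, and list members were counted on chip A where tested there.

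The 6 basal samples were set against the 3 CFC samples with limma 3.58.1 in R 4.3.3 (lmFit and eBayes with a trend, 7 residual degrees of freedom), adjusted by the Benjamini-Hochberg method over all tested probe sets of the chip. MaSC and MYO were compared in a fit with 3 population means. In data simulated from these arrays, the fit recovered 42% of changes of 2 log2 units on chip A and 20% on chip B, and 84% and 83% of changes of 4. The number of arrays limits the precision.

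The groups, the 21 gene lists and the rule for named genes were chosen with earlier results of these data known. The rule takes, on chip A and in each direction, the 12 called genes of largest fold without overlapping arrays, the 8 of widest gap between the groups, the 6 most even across the basal samples among those beyond a log2 fold change of 2 and the 4 of largest difference between MaSC and MYO, with up to 8 genes of chip B, or the 5 of smallest p where under 3 were called, and at most 5 called genes per list. Trp63, Acta2, Itga6, Cd24a, Krt5, Krt14, Krt8 and Krt18 are given in any case. Other list members and genes named beside these were chosen after their values were seen. The alternatives were other pseudocounts (0, 15 and 450), filters (none, or 750), quantile normalization, other variance models and weights, blocks by replicate number or scan day, a threshold of 1 on the log2 fold change, each sample left out, each basal fraction alone and a second probe set per gene. Replicate numbers were not used to pair the samples in the main fit.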

Additional observations from a re-analysis of the deposited data

Results flagged for a closer look

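In 9 of 90 named genes, 1 of the 6 basal samples stood apart from the other 5 by more than Dixon's 95% limit on the log2 scale; chance flags about 1 in 20 groups. Krt17 was low in MYO1, at a signal of 5856 against 11558 to 15242 in the other basal samples. Col4a1 was high in MYO2 (66281, against 23558 to 33275), as was Itga6 (38446, against 15746 to 18972). Krt23 was high in MYO3 (11056, against 3409 to 4590.2) and Ltbp2 in MYO1 (6009, against 2791 to 3611). Of the genes lower in basal samples, Kcnn4 (1514, against 66.4 to 260.3) and Prss8 (410, against 85.4 to 174) were high in MaSC1, Ly6d was high in MaSC3 (3428, against 168 to 353) and Ltf was low in MYO3 (235, against 1205 to 2119). The Ly6d signal of MaSC3 was above the lowest CFC sample, at 2965; the other 8 genes did not overlap between the groups.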

How the results depend on the processing

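Of the 181 higher and 90 lower genes on chip A and the 22 and 2 on chip B, counts moved by over 1.5 times as follows. Without a variance trend they were 88, 33, 9 and 0, and against a log2 threshold of 1 they were 46, 16, 9 and 1. With MaSC alone they were 77, 48, 12 and 4, and MYO alone, from as many samples, gave 172 and 98 on chip A and 4 lower calls on chip B. On chip B, the filter at 750 gave 35 and 9 with fewer genes tested, the scan day block 13 higher, and the first scan day alone, chosen after seeing the data, 14 and 6. Lower calls on chip B were 7 with a pseudocount of 450, 6 with quantile normalization and 4 with robust eBayes. For each of these the cause was not tested. With 1 sample left out, higher calls were 144 to 215 on chip A and 17 to 29 on chip B, and lower calls 44 to 102 and 2 to 4; the lowest chip A counts came without CFC samples (lower calls 57 without replicate 1 and 44 without replicate 2). Between MaSC and MYO, called genes passing an adjusted p were 0 to 1 on chip A, the 1 without MYO replicate 3, and 0 on chip B; those at an unadjusted p under 0.05, 14 and 3 in the main fit, were 8 to 30 and 1 to 4 with 1 sample left out and 6 and 0 without a trend.

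None of the 90 named genes changed direction in any alternative run on its own probe set. The run with a second probe set was not scored for named genes. Some other chip A probe sets of named genes lay on the other side of 0 and were not called. Examples were those of Acta2 (-0.29), Myh11 (-0.64), Trp63 (-0.68) and Erbb3 (0.28). Of the 87 called, 65 kept the call in every run that left out 1 sample, and 22 lost it in at least 1. Without a variance trend 25 named genes lost the call, and 38 did against a log2 threshold of 1. With MaSC alone 19 lost it, and with MYO alone, from as many samples, 3 did. Replicate number as a block gave 184 and 90 calls on chip A and 26 and 3 on chip B, and 1 named gene, Gpx1, lost its call. Correlations of deviations between same-numbered samples were 0.010 to 0.118 for MaSC with MYO and -0.113 to 0.044 for either with CFC. Between samples of unlike number they were -0.111 to 0.141. Deviations from means of 3 samples are tied to each other, so these values cannot settle whether the numbers pair the samples. Scan day and population overlap in part, since every CFC array is from the first day.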

Other observations

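Genes in this section were chosen after their values were seen, so the counts support no theme. They include genes that, as background, are known to respond to the oxygen-sensing factor HIF1 or to handle glucose, called and not called. Slc2a1, the widely expressed glucose transporter GLUT1, had signals of 73915, 98710 and 100350 in MaSC and 56760, 107600 and 136230 in MYO, against 10244, 8819.9 and 13692 in CFC (log2 3.08 ± 0.34, adjusted p = 2.39e-07), with no overlap. Egln3, a prolyl hydroxylase that marks HIF for degradation, was at 3.20 ± 0.42, adjusted p = 5.27e-06, and Adm, the peptide hormone adrenomedullin, at 2.47 ± 0.38 on chip A and 3.40 ± 0.37 on chip B. P4ha1 and Plod2, which hydroxylate collagen, were at 2.54 ± 0.40 and 2.44 ± 0.45, Ero1a, an oxidase of the endoplasmic reticulum, at 3.12 ± 0.56 with overlapping arrays, and Ndrg1, Hif1a and Ddit4 at 1.63 ± 0.41, 1.44 ± 0.36 and 1.77 ± 0.36. Other genes often named beside them were not called, with Car9 at 1.38 ± 0.46 (adjusted p = 0.165), Bnip3 at 1.33 ± 0.45 (0.169), Ldha at 0.73 ± 0.37 (0.558) and Pgk1 at 0.63 ± 0.47 (0.78). Hif1a was lost without MYO2, CFC1 or CFC3 (adjusted p up to 0.296) and Ndrg1 without MaSC3, MYO3 or any CFC sample (adjusted p up to 0.315).

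More genes of collagen handling and matrix turnover were higher in the basal samples. Serpinh1, the collagen chaperone HSP47, had signals of 31609, 70890 and 27976 in MaSC and 17872, 65230 and 39985 in MYO, against 6656, 6594 and 3119 in CFC (log2 2.84 ± 0.38, adjusted p = 6.3e-06), and no sample overlapped. Mmp2, a gelatinase, was at 3.00 ± 0.49, Adamts1, a matrix protease, at 2.67 ± 0.40, Has1, a hyaluronan synthase, at 2.82 ± 0.48 and Agrn, the basement membrane proteoglycan agrin, at 2.27 ± 0.43. The highest basal signals of Mmp2, Adamts1 and Has1 were in MYO2, MYO1 and MaSC1. The summed fibroblast signal was highest there too (67264, 33818 and 33489), while Serpinh1 and Agrn had other samples among their highest. The part of fibroblast RNA in these genes was not tested. Fst, the activin-binding protein follistatin, was called on both chips (3.03 ± 0.49 and 2.79 ± 0.49), and so was the actin-associated gene Palld (2.63 ± 0.38 on chip B). Apoe, the lipid carrier apolipoprotein E (3.82 ± 0.49), Lgals1, galectin 1 (3.43 ± 0.43), and Pdpn, the membrane glycoprotein podoplanin (3.34 ± 0.44), were higher as well. On the lower side stood the ion transport genes Slc12a2 (-1.83 ± 0.40), Atp1b1 (-1.72 ± 0.43) and Car2 (-2.71 ± 0.64), the chaperone gene Clu (-1.65 ± 0.35) and Ptn, the growth factor pleiotrophin (-1.87 ± 0.48). Slc12a2, Clu and Ptn were lost without CFC2 (adjusted p = 0.196, 0.0578 and 0.336), as was Fst on chip B (adjusted p = 0.12), Car2 without CFC1 or CFC3 (adjusted p up to 0.218) and Atp1b1 without MYO2 or any CFC sample (adjusted p up to 0.208).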
